A study of Mus musculus with 16 samples.

Results

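The SOX transcription factors were followed across co-cultures of mouse embryonic stem (ES) cells with PA6 cells, a line of murine marrow stroma that drives ES cells toward neural fates, and across PA6 cells grown alone. The set held 10 genes (SOX1, SOX2, SOX3, SOX21, SOX4, SOX11, SOX9, SOX7, SOX17 and SOX18) of the 30854 target names on the array, and it was chosen by a measured value, since SOX11 was among the largest gains of co-culture over PA6. The 10 genes were measured by 21 probes on Illumina MouseWG-6 v2.0 BeadChips, one array per culture, at day 7 of culture in serum-free medium. Without growth factors (-GFs) there were 2 arrays of co-cultures and 3 of PA6 mono-cultures. Upon FGF2 (20 ng/ml) there were 3 of each kind, and upon BMP4 (10 ng/ml per the labels, a higher dose than the methods of the study state) there were 2 of co-cultures and 3 of PA6, with the factor present for 3 days per the characteristics and from the onset until withdrawal after 3 days per the methods, although the source names of the samples give 7 days. The ES cells expressed a green fluorescent reporter from the tau promoter per the methods, a single ES line and a single stromal line were used, and each co-culture array measured the RNA of both kinds of cell together, so that fewer cells of a type and less RNA per cell cannot be told apart in any value below.

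SOX proteins share a DNA-binding domain related to that of SRY and bend the DNA they bind, usually beside a partner factor. Members of the SOXB1 group (SOX1, SOX2, SOX3) keep neural progenitors undifferentiated, and SOX2 with POU5F1 also maintains pluripotency. SOX21, of the SOXB2 group, is a repressor that opposes SOXB1 proteins during neurogenesis. SOX4 and SOX11 (SOXC) act in neurons that leave the cell cycle, SOX9 (SOXE) acts in cartilage, neural crest and neural stem cells, and SOX7, SOX17 and SOX18 (SOXF) act in endothelium, with SOX17 and SOX7 acting in endoderm as well.

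Of the 10 members, 8 had a probe that all arrays of some group detected (a detection p-value below 0.05) and were tested, while SOX1 and SOX7 had none. Over all 16 arrays 14829 genes were tested. Levels are normalized intensities on the log2 scale. A gene was called as changed at an adjusted p under 0.1 and a log2 fold change over 1 in size, and all adjusted p are those of limma fits across all tested genes. Across genes, Pearson r was 0.973 to 0.986 within a group and 0.723 to 0.797 between a co-culture and a PA6 array, and 37.3% to 47.0% of probes were detected per array.

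The promoters of SOX11, SOX21 and SOX2 are shown because on these 3 members every co-culture array lay above every PA6 array. Each sequence runs from 250 bases before to 50 bases after the start of transcription in RefSeq (GRCm38.p6), 5′ to 3′ on the strand of the gene, and capitals mark the CCAAT box, which reads ATTGG on the other strand. The SOX11 promoter is chr12:27342669-27342968 on the minus strand, that of SOX21 is chr14:118236981-118237280 on the minus strand and that of SOX2 is chr3:34649745-34650044 on the plus strand.
SOX11: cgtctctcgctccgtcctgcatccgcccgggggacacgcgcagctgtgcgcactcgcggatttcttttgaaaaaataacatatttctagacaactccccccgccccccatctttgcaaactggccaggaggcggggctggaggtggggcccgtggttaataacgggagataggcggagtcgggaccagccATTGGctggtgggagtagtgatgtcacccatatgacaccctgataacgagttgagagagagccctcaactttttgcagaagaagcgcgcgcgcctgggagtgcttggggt
SOX21: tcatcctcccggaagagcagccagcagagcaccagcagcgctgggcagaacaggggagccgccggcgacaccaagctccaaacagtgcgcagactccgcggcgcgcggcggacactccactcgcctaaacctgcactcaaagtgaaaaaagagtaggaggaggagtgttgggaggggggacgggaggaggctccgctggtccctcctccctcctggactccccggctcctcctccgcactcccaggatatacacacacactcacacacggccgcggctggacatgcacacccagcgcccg
SOX2: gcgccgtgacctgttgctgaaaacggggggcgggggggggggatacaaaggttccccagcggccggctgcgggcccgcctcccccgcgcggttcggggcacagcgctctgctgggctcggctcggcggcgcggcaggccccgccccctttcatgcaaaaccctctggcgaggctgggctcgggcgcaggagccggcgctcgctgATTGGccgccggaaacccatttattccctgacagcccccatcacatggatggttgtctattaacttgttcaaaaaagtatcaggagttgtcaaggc

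All 3 promoters were rich in G and C (58.7% for SOX11, 65.7% for SOX21 and 66.3% for SOX2, against a median of 52.7% over 32851 promoters of this length) and in CpG dinucleotides (21, 22 and 27, against a median of 7). SOX11 and SOX2 each held 1 CCAAT box, on the opposite strand at positions -60 and -46 from the start, and SOX21 held none; 37.4% of all promoters of this length held the motif on either strand. SOX1 and SOX4, the other members with a promoter in the table, held 1 and 4 CCAAT boxes. Of the other motifs searched on both strands, ATGCAAAT (the octamer bound by POU factors) was found in SOX1 and in 1.74% of all promoters. AACAAT and AACAAAG, forms of the SOX core site that share their first 5 letters, and the TATA box TATAAA were in none of the 5 member promoters and in 10.7%, 5.85% and 13.6% of all. A match of letters in this window is a description of the sequence.

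The levels of the members in co-cultures and in PA6 cells are a description, because the set was picked on that contrast. On the 14829 tested genes, 23.9% had all 7 co-culture arrays above all 9 PA6 arrays and 24.2% had all of them below, and of the 8 tested members 3 lay above (SOX11, SOX21, SOX2) and 1 below (SOX9). Stromal markers were lower in the co-cultures as well, with the summed level of 12 genes at 66734 to 86903 on co-culture arrays and 218060 to 276190 on PA6 arrays, and their part in the lower level of SOX9 was not tested.

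**Figure D1:**
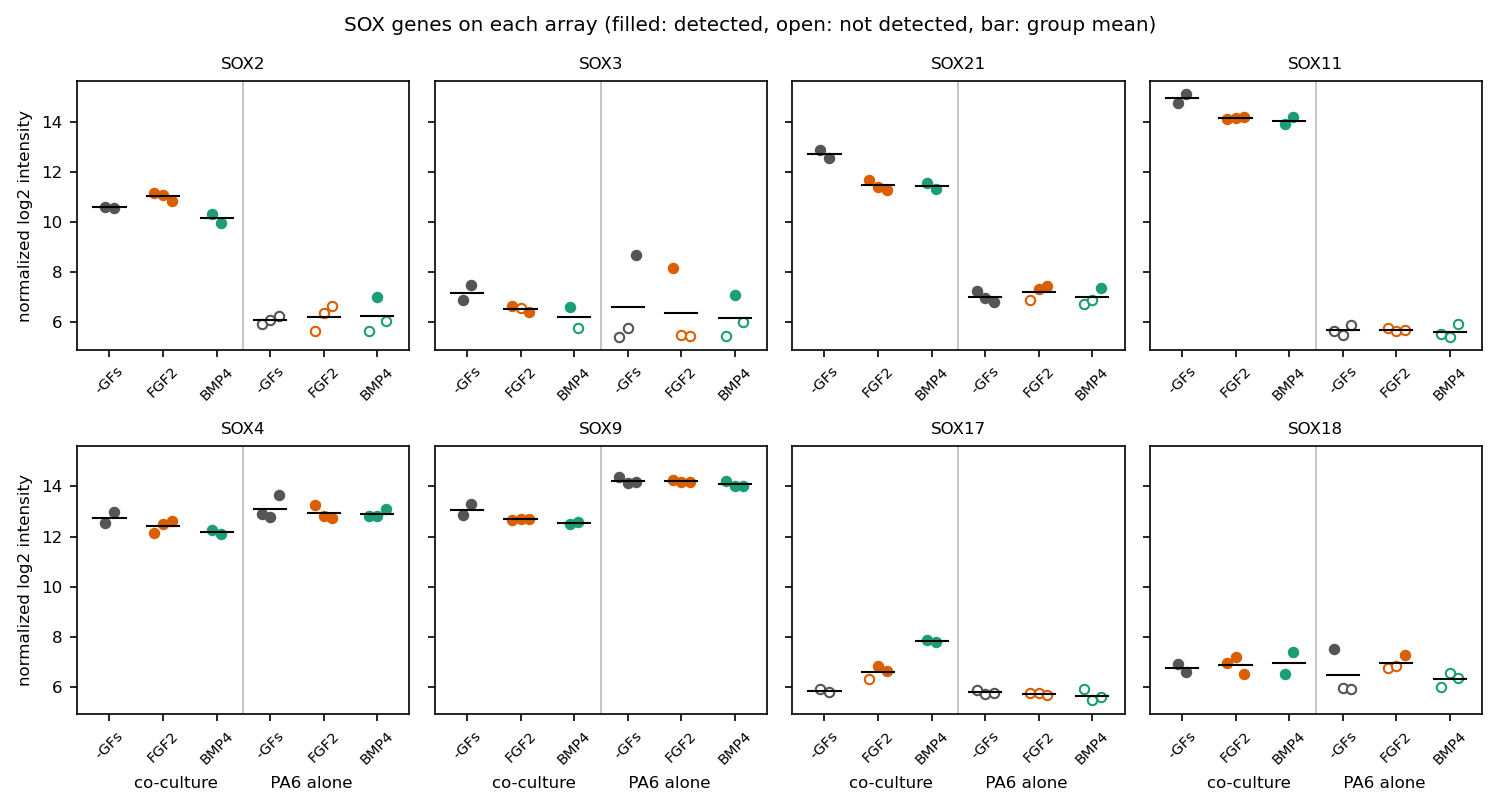
Normalized log2 intensity (vertical axis) of the 8 tested SOX genes on each of the 16 arrays, by kind of culture and growth factor. Filled points were detected, open points were not, and bars are group means; SOX11, SOX21 and SOX2 lie higher on every co-culture array than on any PA6 array, SOX9 lies lower, and SOX17 stands out in the 2 BMP4 co-cultures.

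SOX11, an activator of the neuronal program, was detected on all 7 co-culture arrays. Its log2 level was 14.75 and 15.12 in -GFs co-cultures, 14.09, 14.13 and 14.20 upon FGF2 and 13.89 and 14.19 upon BMP4. On the 9 PA6 arrays it ranged from 5.38 to 5.93 and was detected on none. Both -GFs co-cultures were thus above all 5 treated ones, and the FGF2 and BMP4 arrays overlapped. Against the detection level of the PA6 arrays, co-cultures were at least 303-fold higher without growth factors, at least 162-fold higher upon FGF2 and at least 146-fold higher upon BMP4. Within co-cultures the log2 fold change of SOX11 upon FGF2 was -0.79 ± 0.19 (SE, adjusted p = 0.0589) and upon BMP4 -0.89 ± 0.21 (adjusted p = 0.0936), neither of which reached the size of 1 required for a call. A second probe, ILMN_2616196, read 12.88 and 13.23 without factors, 12.12 to 12.41 upon FGF2 and 12.16 and 12.64 upon BMP4, which is the same order of the -GFs and treated arrays. The last probe, ILMN_2643394, was close to the detection level (6.14 to 7.10 in co-cultures) and its groups overlapped.

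SOX4, the other SOXC member, was bright in both kinds of culture. Its log2 level was 12.53 and 12.99 in -GFs co-cultures, 12.13, 12.51 and 12.63 upon FGF2, 12.24 and 12.10 upon BMP4, and 12.76 to 13.64 on PA6 arrays. The co-culture groups overlapped in part, and the level of the stroma alone was at or above most of them. The changes were -0.33 ± 0.23 upon FGF2 (adjusted p = 0.452) and -0.58 ± 0.25 upon BMP4 (adjusted p = 0.341), neither called. A second probe, ILMN_2893417, read 8.0 and 8.81 without factors, 7.76, 7.30 and 7.54 upon FGF2, 7.28 and 7.25 upon BMP4 and 7.99 to 8.94 on PA6 arrays. Both of its -GFs arrays lay above all treated co-cultures. Tested by itself it differed by -0.87 ± 0.27 upon FGF2 (adjusted p = 0.122) and by -1.14 ± 0.30 upon BMP4 (adjusted p = 0.136), larger than the values of the brighter probe but not called.

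SOX21 fell upon both factors in co-cultures. Its log2 level was 12.87 and 12.56 without growth factors, 11.68, 11.39 and 11.28 upon FGF2 and 11.53 and 11.32 upon BMP4. Both -GFs arrays lay above all 5 treated arrays, by more than they differed from each other. On PA6 arrays it read 6.72 to 7.42, close to the detection level. The log2 fold change was -1.26 ± 0.20 upon FGF2 (SE, adjusted p = 0.0181), a level 2.40-fold lower, and -1.29 ± 0.22 upon BMP4 (adjusted p = 0.0402), a level 2.45-fold lower. Upon BMP4 against FGF2 it differed by -0.03 ± 0.20 (adjusted p = 0.971), which was not called. A second probe, ILMN_3163306, gave 9.20 and 9.10 without factors, 7.52, 6.93 and 7.76 upon FGF2 and 7.42 and 7.63 upon BMP4. Tested by itself it changed by -1.75 ± 0.27 (adjusted p = 0.0156) and -1.63 ± 0.29 (adjusted p = 0.0484), and the last probe was detected on no array. Without -GFs replicate 1 the FGF2 change of SOX21 was -1.11 (adjusted p = 0.122) and lost its call. The BMP4 call was lost without any 1 of -GFs replicates 1 and 2 and BMP4 replicates 1 and 2, with changes of -1.45 to -1.14 and adjusted p of 0.104 to 0.166.

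SOX2, which keeps both pluripotent cells and neural progenitors undifferentiated, was detected on all 7 co-culture arrays. Its log2 level was 10.60 and 10.54 without factors, 11.14, 11.06 and 10.85 upon FGF2 and 10.33 and 9.95 upon BMP4. The FGF2 arrays were above and the BMP4 arrays below the -GFs arrays, with no overlap, but no change passed the test. It was 0.45 ± 0.19 upon FGF2 (adjusted p = 0.225), -0.43 ± 0.21 upon BMP4 (adjusted p = 0.405) and -0.88 ± 0.19 for BMP4 against FGF2 (adjusted p = 0.114). A second probe, ILMN_1248711, was detected on all 7 co-culture arrays and on no PA6 array, and its 3 co-culture groups (8.31 and 8.56, 8.63 to 8.70, and 7.82 and 8.47) overlapped in part. On PA6 arrays SOX2 read 5.64 to 7.01 and was detected on 1 of 9, and co-cultures were at least 14.7-fold higher without factors and at least 18.6-fold higher upon FGF2.

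The 2 probes of SOX3, the X-linked SOXB1 gene, disagreed. The probe that stood for the gene, ILMN_2976077, had the higher mean over all arrays because of 3 single PA6 arrays. It read 6.88 and 7.47 in -GFs co-cultures, 6.63, 6.55 and 6.40 upon FGF2 and 6.60 and 5.76 upon BMP4, while PA6 -GFs replicate 3 read 8.66, PA6 FGF2 replicate 1 read 8.17 and PA6 BMP4 replicate 2 read 7.08. The other 6 PA6 arrays read 5.39 to 5.99 and were undetected. Its changes in co-cultures, -0.65 ± 0.30 upon FGF2 (adjusted p = 0.251) and -0.99 ± 0.33 upon BMP4 (adjusted p = 0.207), were not called. The other probe, ILMN_1245319, was undetected on all 9 PA6 arrays (5.62 to 5.91) and read 8.44 and 8.52 in -GFs co-cultures, 6.19, 6.16 and 6.93 upon FGF2 and 6.94 and 7.39 upon BMP4. Its -GFs arrays were above all treated ones. Tested among all 20880 probes, a choice made after its values were seen, it changed by -2.05 ± 0.28 upon FGF2 (adjusted p = 0.0116) and by -1.31 ± 0.31 upon BMP4 (adjusted p = 0.104). With this probe the call for SOX3 upon FGF2 is made and with the main probe it is not, and which of them measures SOX3 was not tested.

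**Figure D2:**
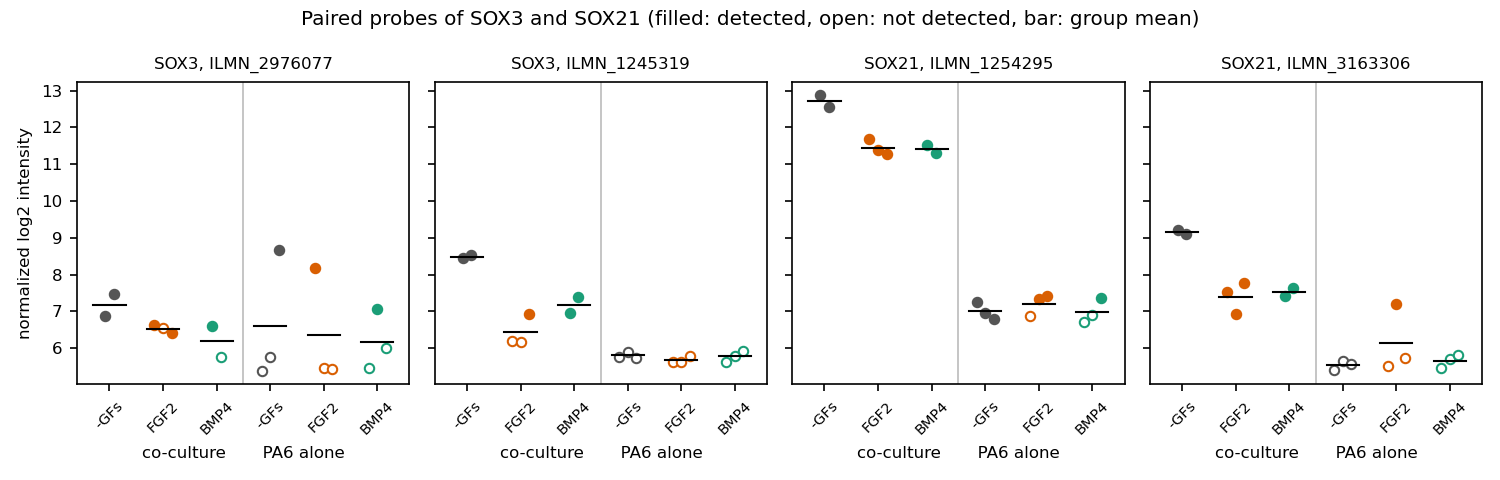
Normalized log2 intensity of both retained probes of SOX3 (left) and of SOX21 (right) on each array; filled points were detected, open points were not, and bars are group means. Both probes of SOX21 are higher on the -GFs than on the treated co-culture arrays, while probe ILMN_2976077 of SOX3 is high on 3 single PA6 arrays and probe ILMN_1245319 is detected in co-cultures alone.

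SOX1, a marker of early neural ectoderm, was detected on 1 array, co-culture -GFs replicate 1 (6.94), and read 5.59 to 6.50 on the others, so no change could be measured at this signal.

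SOX9 was higher on every PA6 array than on any co-culture array. Its log2 level was 14.02 to 14.39 on the 9 PA6 arrays, against 12.86 and 13.29 in -GFs co-cultures, 12.64, 12.72 and 12.71 upon FGF2 and 12.52 and 12.60 upon BMP4. In co-cultures both -GFs arrays were above all 5 treated ones, and neither change passed the test (-0.38 ± 0.18 upon FGF2, adjusted p = 0.274, and -0.52 ± 0.20 upon BMP4, adjusted p = 0.292). A second probe, ILMN_3007428, read 8.86 to 10.03 in co-cultures and 10.87 to 11.65 on PA6 arrays.

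SOX17, a regulator of endoderm and of arterial endothelium, rose upon BMP4 in co-cultures. Its log2 level was 5.89 and 5.79 without factors, undetected on both arrays. It was 6.33 (undetected), 6.81 and 6.63 upon FGF2 and 7.85 and 7.78 upon BMP4. The 3 groups did not overlap. On PA6 arrays it ranged from 5.48 to 5.90 and was detected on none. The fitted change upon BMP4 was 1.97 ± 0.21 (SE, adjusted p = 0.0109), and against the detection level of the -GFs arrays the BMP4 co-cultures were at least 2.43-fold higher. BMP4 also exceeded FGF2, by 1.23 ± 0.19 (adjusted p = 0.0633), a 2.34-fold difference. Upon FGF2 the change was 0.75 ± 0.19 (adjusted p = 0.0719), under the size required, and the bound was at least 1.04-fold. SOX17 passed the detection filter through the BMP4 co-cultures alone, the group in which it was called. A second probe, ILMN_2784446, was detected on 1 array only, BMP4 replicate 2 (6.32). The BMP4 change against -GFs remained called with each of the 7 arrays left out (1.92 to 2.03), whereas the difference between BMP4 and FGF2 lost its call without any 1 of the 5 treated arrays (1.10 to 1.34, adjusted p of 0.117 to 0.305). It lost it too with no background correction (0.66, adjusted p = 0.0904), no filter on dim probes, an adjusted p under 0.05 or the replicate number as a block.

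SOX18, a regulator of lymphatic endothelium, was dim, at 6.93 and 6.58 without factors, 6.93, 7.21 and 6.52 upon FGF2 and 6.51 and 7.40 upon BMP4, and its groups overlapped. Its changes were 0.13 ± 0.32 upon FGF2 (adjusted p = 0.85) and 0.20 ± 0.35 upon BMP4 (adjusted p = 0.883). The 3 probes of SOX7 were detected on 1 array in all, PA6 -GFs replicate 1 (6.96), and co-cultures read 5.39 to 6.48.

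**Figure D3:**
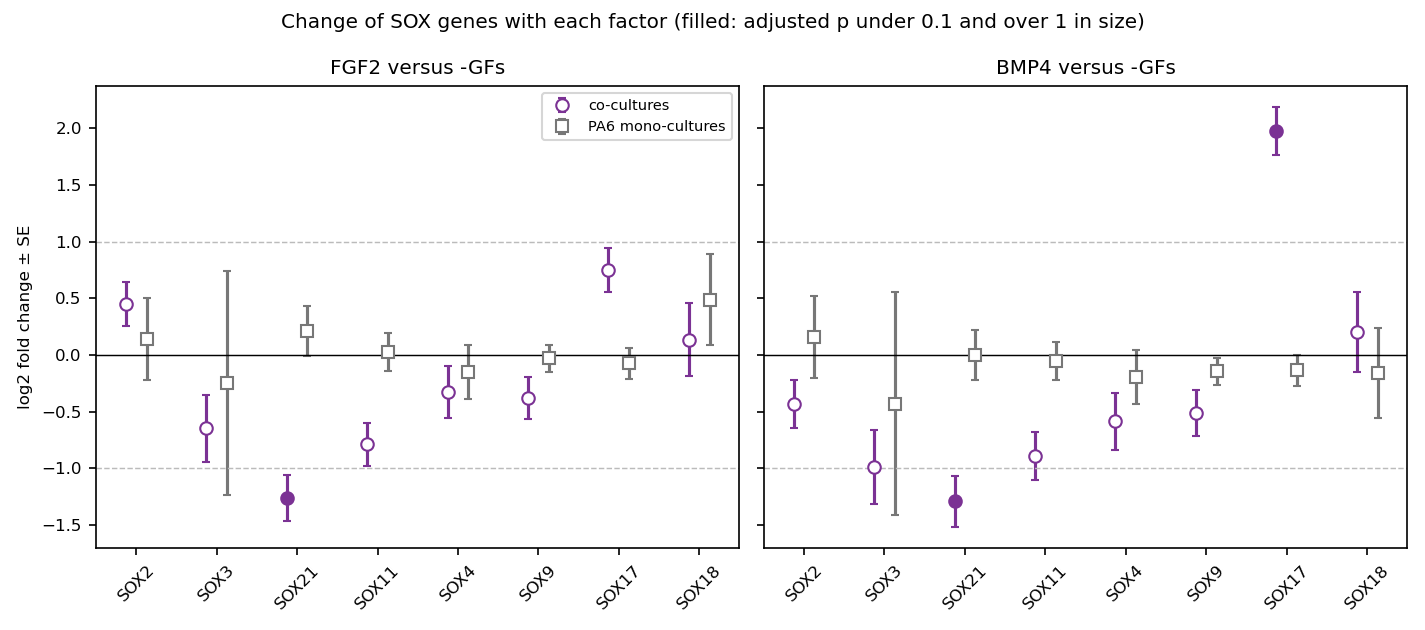
Log2 fold change (points) with its SE (bars) of the 8 tested SOX genes upon FGF2 (left) and upon BMP4 (right), in co-cultures (circles) and PA6 mono-cultures (squares). Filled points passed both thresholds: SOX21 upon FGF2 (-1.26) and upon BMP4 (-1.29) and SOX17 upon BMP4 (1.97), all in co-cultures.

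Upon FGF2 in co-cultures 1 of 8 tested members was called (SOX21), and 7.42% of all tested genes were. Upon BMP4 2 of 8 were called (SOX21 and SOX17) beside 3.75% of all genes, and for BMP4 against FGF2 1 of 8 (SOX17) beside 1.44%. With 8 members, these counts stand for the named genes and say nothing of the family as a whole. SOX17 entered the 8 only through the BMP4 co-cultures, the group in which it was high. Counts that include it are therefore no measure against the share of all genes. The calls among all genes fell with single arrays left out, from 1100 to 395 upon FGF2 without -GFs replicate 1, from 556 to 102 upon BMP4 without BMP4 replicate 1 and from 214 to 39 for BMP4 against FGF2 without BMP4 replicate 2. The comparisons with -GFs share the same 2 untreated co-cultures.

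In PA6 mono-cultures no tested member was called. Of all genes 0.027% were called upon FGF2, 0% upon BMP4 and 0.31% for BMP4 against FGF2. The 8 members differed by -0.25 to 0.49 upon FGF2 (lowest adjusted p 0.686), by -0.43 to 0.16 upon BMP4 (lowest adjusted p 0.74) and by -0.65 to 0.02 for BMP4 against FGF2 (lowest adjusted p 0.677). The limma fit made 0 calls upon BMP4 among all genes, where 1334 had an unadjusted p under 0.05. The changes of SOX21 in the stroma, where it lay close to the detection level, were 0.21 ± 0.22 and -0.0028 ± 0.22. Those of SOX17, undetected there, were -0.07 ± 0.14 and -0.14 ± 0.14. The SE of SOX3, 0.99, was the widest because of its single high arrays.

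The effect of each factor was then compared between co-cultures and PA6 in one fit over 16 arrays. The FGF2 effect on SOX21 was lower in co-cultures by 1.48 on the log2 scale (-1.48 ± 0.31, adjusted p = 0.0129), 1 of 8 members called beside 7.9% of all genes. The BMP4 effect on SOX17 was higher in co-cultures by 2.11 ± 0.23 (adjusted p = 0.00027) and that on SOX21 was -1.29 ± 0.33 (adjusted p = 0.054), 2 of 8 called beside 4.23%. SOX17 was tested through the BMP4 co-cultures alone, the group in which it was high. The BMP4 difference of SOX21 lost its call without some single arrays, and with median scaling, no filter or an adjusted p under 0.05. SOX21 lay close to the detection level on PA6 arrays, so its differences add little to the co-culture changes. SOX11 differed by -0.81 ± 0.25 upon FGF2 (adjusted p = 0.0714) and by -0.84 ± 0.26 upon BMP4 (adjusted p = 0.124), and SOX17 by 0.82 ± 0.22 upon FGF2 (adjusted p = 0.0411), all under the size of 1.

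**Figure D4:**
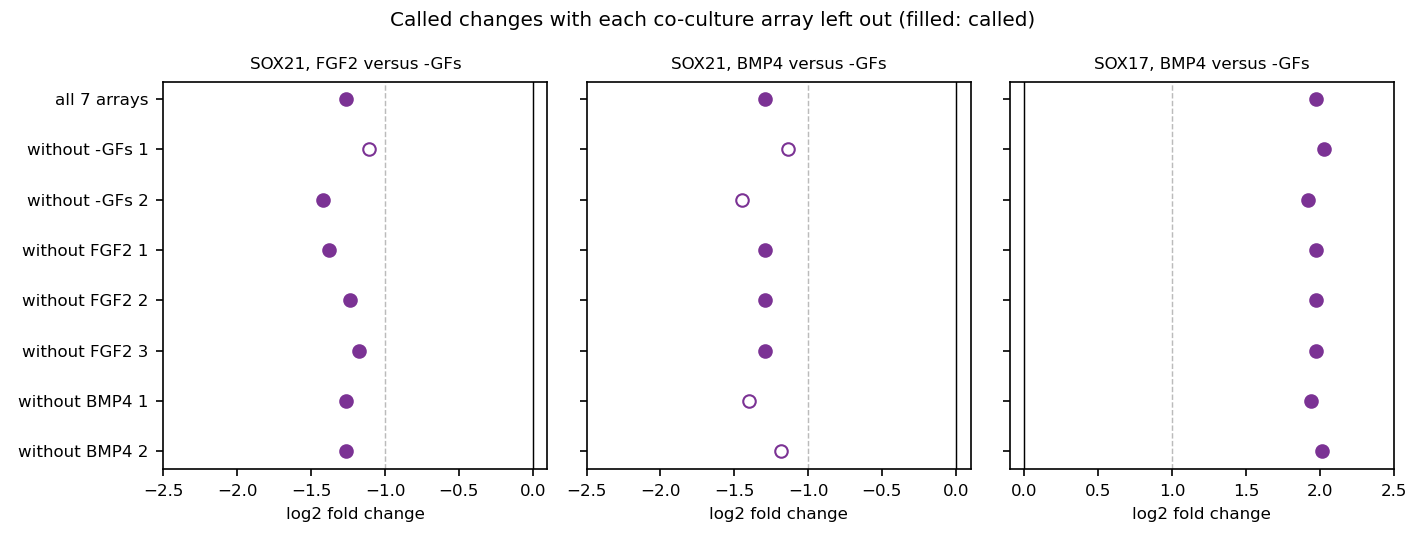
Log2 fold change (horizontal axis) of the called members in co-cultures with all 7 arrays and with each array left out in turn (rows, named by treatment and replicate); filled points passed both thresholds, and the dashed line marks a size of 1. SOX17 upon BMP4 stays filled throughout (1.92 to 2.03), and SOX21 upon BMP4 loses its call in 4 of 7 rows.

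Other SOX genes were measured on the same arrays. Of 10 further names 6 were tested, and SRY, SOX6, SOX14 and SOX30 were not, since they were detected on no array or on 1. SOX13, a SOXD gene without an activation domain of its own, fell upon FGF2, from 10.58 and 9.49 without factors to 8.59, 7.82 and 8.09, a change of -1.87 ± 0.36 (adjusted p = 0.0295). Upon BMP4 it read 8.77 and 8.83 (-1.24 ± 0.39, adjusted p = 0.19). Its -GFs arrays differed by more than 1 between themselves, and without -GFs replicate 1 the FGF2 change was -1.32 (adjusted p = 0.134). SOX15, which is expressed in ES cells, passed the detection filter through the treated co-cultures alone, where it was high. It rose upon FGF2, from 5.64 (undetected) and 6.50 to 7.22, 7.56 and 7.40, a change of 1.32 ± 0.29 (adjusted p = 0.0457). Without -GFs replicate 1 it was 0.89 (adjusted p = 0.204), and without FGF2 replicate 2 it was 1.24 (adjusted p = 0.121).

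SOX5, also of the SOXD group, read 9.92 and 10.19 without factors, 9.35 to 9.53 upon FGF2 and 9.38 and 8.77 upon BMP4, with no call within co-cultures. Its BMP4 effect differed between co-cultures and PA6 by -1.12 ± 0.31 (adjusted p = 0.075), a call made in 4 of 11 alternatives and in 7 of 16 fits with 1 array left out. The neural crest factor SOX10 (6.62 to 8.61 in co-cultures), its relative SOX8 (6.31 to 7.26) and the SOXC gene SOX12 (12.23 to 12.78) were not called in co-cultures. The 6 genes together had a median change of 0.0043 upon FGF2, where all genes had -0.057, and of -0.48 upon BMP4, where all genes had -0.0015. A probe under the target name SOX16, noted after its values were seen, rose upon both factors (2.00 ± 0.19, adjusted p = 0.00451, and 1.25 ± 0.21, adjusted p = 0.0357), and in 3 of 7 fits with 1 array left out the BMP4 call was kept. The SOX16 probe passed the detection filter through the treated co-cultures alone, where it was high. Its name matched no symbol or synonym of a mouse gene in RefSeq.

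Genes that work with the SOX proteins were counted from lists chosen with earlier results of these data known, so the counts are a description. The share called among all genes was 7.42% upon FGF2, 3.75% upon BMP4 and 1.44% for BMP4 against FGF2. Of 14 tested pluripotency genes and POU factors that partner SOX2, 8 rose upon FGF2 in co-cultures, with a median change of 2.09 over the list. Among them were TDGF1, a coreceptor for NODAL (2.89 ± 0.56, adjusted p = 0.0305), ESRRB, a nuclear receptor of naive ES cells (2.87 ± 0.28, adjusted p = 0.00476), ZFP42 (2.77 ± 0.34, adjusted p = 0.00865) and POU5F1 itself (2.70 ± 0.43, adjusted p = 0.0181). Upon BMP4 3 rose (ZFP42 at 1.75, ESRRB at 1.36 and NANOG at 1.31), with a list median of 0.94, and against FGF2 2 were lower (ESRRB at -1.51 and FGF4 at -1.51), calls that were both lost without any 1 of the 3 FGF2 arrays or BMP4 replicate 2, and that of ESRRB also without either -GFs array (adjusted p of 0.115 to 0.37). With 1 array left out the FGF2 count was 6 to 8 and the BMP4 count 0 to 5, the BMP4 calls being lost without either -GFs array or BMP4 replicate 1. ESRRB also lost its BMP4 call against -GFs without any 1 of the 3 FGF2 arrays, and ZFP42 without FGF2 replicates 1 or 3. TDGF1 lost its FGF2 call without either -GFs array. The summed level of the list was 21399 to 23218 without factors, 67276 to 85825 upon FGF2 and 30216 to 53387 upon BMP4, while on PA6 arrays it was 1226 to 1909.

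Of 13 tested neural progenitor genes, 4 fell upon FGF2, with a list median of -0.38. They were HES5, a Notch effector (-2.11 ± 0.18, adjusted p = 0.00451), the intermediate filament gene NES (-1.29 ± 0.23, adjusted p = 0.0248), the Notch ligand DLL1 (-1.26 ± 0.28, adjusted p = 0.0452) and RFX4 (-1.16 ± 0.22, adjusted p = 0.0281). Upon BMP4 2 fell (HES5 by 1.38 and RFX4 by 1.26), with a median of -0.25. The FGF2 count was 2 to 4 and the BMP4 count 0 to 2 with 1 array left out, and without BMP4 replicate 1 both BMP4 calls were lost. RFX4 also lost its BMP4 call without either -GFs array. The FGF2 call of DLL1 was lost without either -GFs array or FGF2 replicates 2 or 3. That of RFX4 was lost without -GFs replicate 1 and that of NES without -GFs replicate 2. PAX6, LHX2, SIX3, HESX1, PROM1, MSI1 and OLIG2 did not pass the detection filter.

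Of 12 tested neuronal genes of the SOX4 and SOX11 setting, 2 fell upon FGF2 (CRABP1 by 1.71 and ELAVL3 by 1.10) and 6 upon BMP4, with list medians of -0.47 and -1.31 and none higher in either. Upon BMP4 the largest were MAPT, which encodes tau (-2.49 ± 0.52, adjusted p = 0.068), SYT1 (-1.92 ± 0.36, adjusted p = 0.0518), STMN3 (-1.80 ± 0.43, adjusted p = 0.0965) and ELAVL3 (-1.73 ± 0.29, adjusted p = 0.0373). Over the processing alternatives the FGF2 count was 0 to 3 and the BMP4 count 1 to 8. With 1 array left out the FGF2 count ranged from 0 to 2 and the BMP4 count from 0 to 6, and MAPT, SYT1, STMN3 and ELAVL3 each lost the BMP4 call without -GFs replicate 2 or either BMP4 array.

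Of 13 tested endothelial genes of the SOXF setting, 2 rose upon each factor. PECAM1 changed by 3.24 ± 0.42 upon FGF2 (adjusted p = 0.0098) and by 1.98 ± 0.46 upon BMP4 (adjusted p = 0.088), and TEK by 2.94 ± 0.28 (adjusted p = 0.00451) and 2.11 ± 0.30 (adjusted p = 0.026). The list medians were 0.38 and 0.78. The summed level of the list was 11883 to 16955 on co-culture arrays and 30381 to 45192 on PA6 arrays, so stroma alone expressed part of it. The defining endothelial genes CDH5, TIE1, KDR, FLT4, DLL4, ERG, VWF and ICAM2 did not pass the detection filter. Both FGF2 calls held with each array left out, whereas TEK and PECAM1 both lost the BMP4 call without -GFs replicate 2 or BMP4 replicate 1. PECAM1 lost it as well without -GFs replicate 1 or FGF2 replicates 1 or 3.

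Of 13 tested endoderm genes of the SOX17 setting, AMN rose (1.35 ± 0.30, adjusted p = 0.0458) and CXCR4 fell (-1.34 ± 0.23, adjusted p = 0.0226) upon FGF2, and upon BMP4 CXCR4 fell (-1.32 ± 0.26, adjusted p = 0.0554) with no gene called higher. List medians were 0.16 and 0.46. The summed level of these genes was 26818 to 41717 on co-culture arrays and 94903 to 132540 on PA6 arrays, so stroma alone expressed part of the list. Without -GFs replicate 1 all of these endoderm calls were lost. GATA4, FOXA2, AFP, TTR, CER1 and CUBN did not pass the detection filter. Of 9 tested cartilage genes of the SOX9 setting 1 rose upon FGF2, COL9A2 (1.93 ± 0.34, adjusted p = 0.0229), and 1 upon BMP4, COL9A1 (1.13 ± 0.20, adjusted p = 0.0457), with list medians of -0.013 and 0.24. Both calls were lost without -GFs replicate 1, and that of COL9A1 also without -GFs replicate 2 or either BMP4 array. With every probe kept, COL9A1 was read by another probe and changed by -0.31 upon BMP4 (adjusted p = 0.897).

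Of 9 tested neural crest genes, EDNRB fell upon both factors (by 1.06 upon FGF2 and by 1.13 upon BMP4), and SNAI2 (2.16 ± 0.19, adjusted p = 0.00653) and TWIST1 (1.13 ± 0.23, adjusted p = 0.061) rose upon BMP4. List medians were -0.75 and 0.0008. The FGF2 call of EDNRB was lost without either -GFs array or FGF2 replicates 1 or 2, its BMP4 call with any 1 array left out and that of TWIST1 without any -GFs or BMP4 array, whereas SNAI2 remained called. Epidermal markers moved with BMP4, where 5 of 8 tested rose, with KRT14 (7.35 ± 0.93, adjusted p = 0.0174), KRT15 (6.25 ± 0.33, adjusted p = 0.000741), TRP63 (4.99 ± 0.34, adjusted p = 0.00251) and DSP (2.92 ± 0.18, adjusted p = 0.00141) changing most. Their summed level was 2528 to 3393 without factors, 4417 to 5453 upon FGF2 and 20202 to 35388 upon BMP4. SOX17 was highest on these BMP4 arrays as well, while SOX21 was low upon FGF2 and BMP4 alike. The BMP4 count was 3 to 5 with 1 array left out, and KRT14 lost its call without BMP4 replicate 1 (6.51, adjusted p = 0.106). List medians were 0.12 upon FGF2 and 2.29 upon BMP4. Upon FGF2 CDH1 alone rose (2.37 ± 0.37, adjusted p = 0.0169).

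Markers of other cells were followed on the same arrays. Of 12 stromal markers none was called upon either factor in co-cultures, and their summed level was 66734 to 74118 without factors, 66944 to 74966 upon FGF2 and 69875 to 86903 upon BMP4. None of the 5 tested adipocyte markers was called, although 0 to 4 were called upon BMP4 across the alternatives, and their summed level was uneven within groups (1892 to 4230 without factors, 2410 to 3441 upon FGF2 and 3106 to 19416 upon BMP4). The part of these cell types in the SOX changes was not tested.

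**Figure D5:**
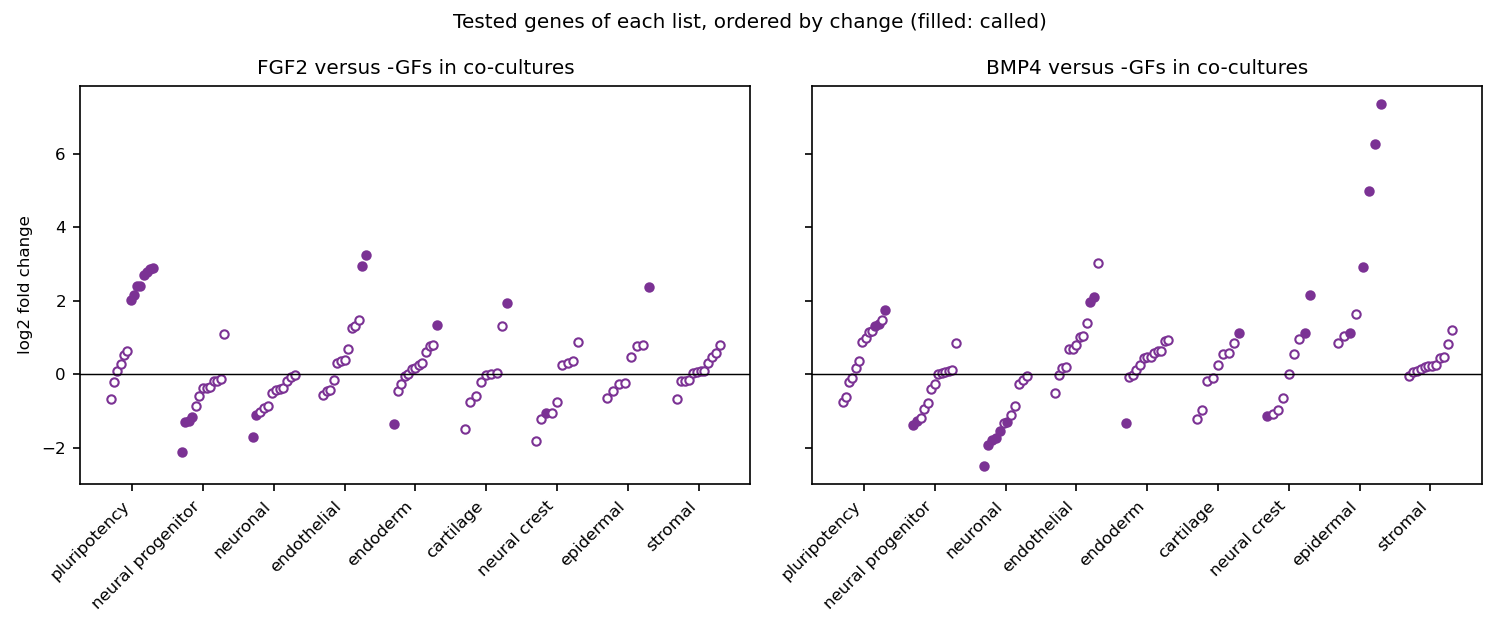
Log2 fold change (vertical axis) of each tested gene of 9 lists upon FGF2 (left) and upon BMP4 (right) in co-cultures, ordered within each list; filled points passed both thresholds. Pluripotency genes rise upon FGF2 (8 of 14), neuronal genes fall upon BMP4 (6 of 12) and epidermal markers rise upon BMP4 (5 of 8).

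For each tested member the 3 genes with the most similar pattern over the 7 co-culture arrays were listed by Pearson r, as a description over arrays that fall into 3 groups. SOX11 was nearest to DBNDD1, MAPRE2 and TNRC6C (0.988 to 0.99), SOX21 to PPP1R9A, NDRG3 and OLFR653 (0.982 to 0.984) and SOX17 to SV2B, BCL11B and DERL2 (0.986 to 0.989). SOX2 was nearest to HEMK1, ATP6V1B2 and EXDL2 (0.967 to 0.973), SOX3 to PIK3CA, CRMP1 and A930026H04RIK (0.969 to 0.99) and SOX4 to SLC22A17, LOC231118 and PODXL2 (0.978 to 0.991). SOX9 was nearest to SAMD14, 4931426K16RIK and ST18 (0.982 to 0.993), and SOX18 to ANXA9, CCNF and TUBA1B (0.929 to 0.936).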

How the data were processed

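RNA of 16 cultures was measured on Illumina MouseWG-6 v2.0 BeadChips, 1 array each. The authors scanned the arrays and processed them with GenomeStudio 2011.01 (submitters' processing notes). The deposited table gives each probe's mean bead intensity on each array, before any normalization. A detection p-value is deposited beside each intensity and compares it with the negative control beads. The cubic spline values of the study were not used, and no genome build was given.

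With neqc (limma 3.58.1, R 4.3.3), background was corrected by normexp using the detection p-values, an offset of 16 was added, and the 16 arrays were quantile normalized and logged to base 2. A probe was kept if all arrays of some group detected it at a p-value below 0.05 (20880 of 45281), and the probe with the largest mean stood for each of 14829 genes. Linear models of limma with moderated variances were fitted to the 7 co-culture arrays, to the 9 PA6 arrays and, for differences of effects, to all 16. A gene was called at a Benjamini-Hochberg adjusted p under 0.1, over all genes, and a log2 fold change over 1 in size. Where a group was undetected on every array, a fold is a lower bound against, per array, the higher of the lowest detected signal and the probe's own signal. Groups came from the labels, which call the arrays of a group biological replicates. The number of arrays limits the precision. The fits were tested on simulated data.

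Named were all members with every probe, the other SOX genes, up to 4 called genes of largest change per list and comparison, and the 3 nearest genes of each member. Members and lists were chosen with earlier results of these data known. Alternatives covered background correction, scaling, filters, the probe per gene, thresholds, the variance prior, blocks and leaving out each array. Testing each probe by itself, and repeating all settings for the other genes named, were added after seeing the data. Promoters were matched by symbol to RefSeq (Python 3.11.15), for 5 of 10 members.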

Additional observations from a re-analysis of the deposited data

Results flagged for a closer look

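The effect of a growth factor differed between co-cultures and PA6 mono-cultures for 3 pairs of gene and factor among the 8 tested members, each by the test of the difference itself in the fit over 16 arrays (limma, Benjamini-Hochberg over all genes). For SOX21 upon FGF2 the difference was -1.48 ± 0.31 on the log2 scale (adjusted p = 0.0129), from -1.26 in co-cultures, where both -GFs arrays lay above all 3 FGF2 arrays, and 0.21 in PA6 cells. It remained called with each of the 16 arrays left out (-1.65 to -1.32). On PA6 arrays SOX21 read 6.72 to 7.42, close to the detection level (6.69 to 6.85 by group), so a fall there could hardly be measured. The differences of SOX21 thus largely restate its fall in co-cultures. For SOX17 upon BMP4 the difference was 2.11 ± 0.23 (adjusted p = 0.00027), a fitted value that rests on signal in the treated co-cultures, since SOX17 was undetected on all PA6 arrays and both -GFs co-cultures and passed the detection filter through the BMP4 co-cultures alone. Against the detection level, BMP4 co-cultures were at least 2.43-fold above -GFs co-cultures and at least 1.96-fold above BMP4-treated PA6 cells. For SOX21 upon BMP4 the difference was -1.29 ± 0.33 (adjusted p = 0.054), and it was called in 10 of 16 fits with 1 array left out. It was not called without co-culture -GFs replicate 1, either co-culture BMP4 replicate, PA6 -GFs replicates 2 or 3 or PA6 BMP4 replicate 3 (-1.40 to -1.10, adjusted p of 0.101 to 0.183).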

How the results depend on the processing

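The call of SOX17 upon BMP4 against -GFs in co-cultures held in all 12 alternatives and all 7 fits with 1 array left out, and that of SOX21 in all 12 alternatives for each factor. Among these, dropping the minimum fold change could only add calls, and the mean of probes left the values of SOX17, with 1 retained probe, unchanged. The number of members called upon FGF2 in co-cultures was 1, and it was 2 with detection p under 0.01, with the mean of all probes of a gene and with each probe tested by itself (SOX3 added), 3 with no minimum fold change (SOX11 and SOX17 added) and 0 to 1 with 1 array left out. Upon BMP4 it was 2, and 3 with detection p under 0.01 or the mean of all probes (SOX3 added) or no minimum fold change (SOX11 added), and 1 to 2 with 1 array left out. For BMP4 against FGF2 it was 1, and 0 with no background correction, with no filter, at an adjusted p under 0.05, and 0 to 1 with 1 array left out. For the difference of the FGF2 effect it was 1, and 2 with the stricter detection or each probe, and 3 with no minimum fold. For the difference of the BMP4 effect it was 2, and 1 with median scaling, no filter or an adjusted p under 0.05, 3 with the stricter detection or each probe (SOX3 added), and 1 to 2 with 1 array left out (SOX21 lost). Replicate numbers shared by groups did not pair the co-cultures (correlation of deviations -0.20 to 0.28 over 6 pairs), and in PA6 cells every array correlated best with its own number (0.07 to 0.20 over 9 pairs), not over 0.1 in each pair. With the replicate number as a block the count for BMP4 against FGF2 was 0 (SOX17 1.24, adjusted p = 0.158) among 11 genes called in place of 214, and 258 in place of 556 genes were called upon BMP4, and no other member call changed. Co-cultures in the same run of data columns did go together (0.098 to 0.283 over 5 pairs, median 0.199), against a median of -0.098 over the 11 other pairs. What the runs stand for is not given by the labels. Blocks from these runs changed no count of members, though calls among all genes for BMP4 against FGF2 rose from 214 to 560.

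Median scaling moved the median of all genes in co-cultures from -0.057 to -0.21 upon FGF2 and from 0.039 to 0.29 for BMP4 against FGF2, and in this last comparison the small values of SOX21, SOX11, SOX4 and SOX9 turned to 0.04 to 0.28. It moved the share of calls that were higher from 52.3% to 63.8% there, from 62.3% to 75.2% for the difference of FGF2 effects and from 61.6% to 77.4% for that of BMP4 effects. Calls among all genes ranged over the alternatives with all arrays from 663 to 1675 upon FGF2, 258 to 870 upon BMP4 and 11 to 574 for BMP4 against FGF2 in co-cultures, from 0 to 72 in PA6 cells, and from 741 to 1627 and 422 to 764 for the differences. With 1 array left out they ranged from 395 to 1069, 102 to 547 and 39 to 187 in co-cultures, from 0 to 42 in PA6 cells, and from 939 to 1317 and 397 to 689 for the differences. The level of SOX17 in -GFs co-cultures minus PA6 turned from 0.05 to -0.086 with median scaling, undetected on both sides, and COL9A1 turned to -0.31 upon BMP4 and to -0.20 against FGF2 with no filter. The cause was not tested. SOX1, SOX7, SOX17 and SOX18 lay near background, which limits what these arrays can show of them.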

Other observations

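Some SOX probes were detected on single arrays of a group. On PA6 -GFs replicate 1, SOX18 read 7.50, SOX7 read 6.96 and SOX30 read 6.81, while the other PA6 -GFs arrays read at most 5.97, 6.51 and 5.69 for the same probes and detected none. SOX3 probe ILMN_2976077 stood high on PA6 -GFs replicate 3 (8.66), PA6 FGF2 replicate 1 (8.17) and PA6 BMP4 replicate 2 (7.08). SOX10 read 8.61 on co-culture FGF2 replicate 2 and 6.62 to 7.65 on the other 6 co-culture arrays.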
